A study of Homo sapiens with 6 samples.

Results

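The genes described here make, convert and break down sphingolipids. A list of 43 gene symbols was set by name and ordered by 7 steps of the pathway, with no expression threshold in the rule. It was chosen with earlier results of these data known. It includes GALC, ASAH1 and SPTLC3, which the study had already named from its own RNA-seq comparison. All 43 symbols were found among the 16306 genes of the deposited gene table. RNA was sequenced from PC9 cells, a human lung adenocarcinoma line that carries an activating EGFR deletion. The control samples carried a negative control shRNA (sh-NC, 3 libraries). The other samples carried an shRNA against RBM10 (shRBM10, 3 libraries), a gene on the X chromosome that encodes an RNA-binding regulator of splicing. No time after transfection and no drug is given for either group, and neither the labels nor the study's methods say which RBM10 shRNA was in which library. The labels call each sample a replicate biosample, and the study's methods state in general that experiments were repeated independently, but neither says whether these libraries came from separate cultures, so p-values measure the spread between these samples, which may be technical. The labels' protocol mentions retinas and 2 kits for making libraries, without tying a kit to a library. Column names matched the labels of the sh-NC replicates 1 to 3 and of shRBM10 replicate 1, called library A here. 2 further shRBM10 columns matched no sample title and were taken as libraries B and C, with no replicate number given to either.

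Sphingolipids are membrane lipids built on a long-chain base. Serine palmitoyltransferase joins serine to a fatty acyl-CoA in the endoplasmic reticulum, and reduction, N-acylation and desaturation then give ceramide, which is carried to the Golgi and made into sphingomyelin or glycosphingolipids. In the lysosome these are stripped back to ceramide, ceramidases release sphingosine, and sphingosine kinases turn it into sphingosine 1-phosphate (S1P), a lipid signal that acts on its own receptors or is cleaved for good by a lyase. The comparison addressed which of these steps differed in RNA level between shRBM10 and sh-NC cells.

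The counts on genes summed to 18181902 to 18864241 per sh-NC library and 16606401 to 18526158 per shRBM10 library. RBM10 itself was counted 1578, 864 and 1628 times in the sh-NC replicates (1, 2 and 3 in this order throughout) against 523, 537 and 700 times in shRBM10 (A, B and C in this order). All 3 shRBM10 libraries were below all 3 sh-NC libraries, with TMM-normalised counts of 1361 ± 155 in sh-NC against 575 ± 85.4 in shRBM10 (SD, n = 3 each) and a log2 fold change of -1.24 (SE 0.23, edgeR adjusted p = 0.1). Without sh-NC replicate 2 the log2 fold change was -1.42 (edgeR adjusted p = 0.0487). That replicate stood apart, with a median count of 181 over the genes it detected against 290 to 334 in the other 5 libraries. Its deviations from the mean of all libraries ran with gene length at a Spearman correlation of -0.65 over genes, against 0.02 to 0.44 in the others. shRBM10 libraries A and B also stood apart, because their deviations ran with GC content at -0.74 and -0.67 over genes, whereas the sh-NC libraries and library C lay at 0.40 to 0.51. sh-NC replicates 1 and 3 were the closest pair (chi-square of 2.93 per degree of freedom, against at least 29.7 for any other pair). They still differed beyond counting error and were kept as 2 samples. Markers of adenocarcinoma epithelium (10 of 10 listed) summed to 35400 to 36400 TPM (a level corrected for library size and gene length) in sh-NC and 29000 to 39100 in shRBM10. The keratins KRT7, KRT8, KRT18 and KRT19 made most of this sum. Of the lung-lineage members, NKX2-1 and SFTPB had 0 to 3 counts per library. NAPSA had 9 to 17, with lower normalised counts in every shRBM10 library than in every sh-NC library. The 6 fibroblast markers summed to 0.57 to 2.08 TPM in sh-NC and 1.82 to 3.14 in shRBM10, with LUM and DCN not listed, and the 6 endothelial markers to 1.36 to 4.55 and 1.22 to 1.59 TPM. Of the 5 leukocyte markers, CSF1R gave most of a sum of 12.8 to 27.3 TPM in sh-NC and 30.1 to 43.6 in shRBM10. The 3 astrocyte markers reached at most 0.0567 TPM. The 6 retina markers, of which 3 were not listed, summed to 0.104 to 0.25 TPM in sh-NC and 0.491 to 0.747 in shRBM10. The part of these other cell types' markers in the results was not tested. In RNA from bulk cultures, fewer cells of a kind and less RNA per cell cannot be told apart.

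Most genes of the pathway were fitted within a log2 fold change of 1 of the controls, and those beyond it were higher in shRBM10 cells. They were ASAH1 and ACER2, which release sphingosine from ceramide, GALC, which removes galactose from galactosylceramide in the lysosome, SPTLC3 and SPTSSB of serine palmitoyltransferase, and the ceramide synthase CERS6. These 6 passed the limits of an unadjusted edgeR p below 0.05 with a log2 fold change beyond 1 in size, and all 6 lay higher in shRBM10 (6 of 42 tested, beside 10.1% of all 12620 genes tested). None of the 43 lay lower at these limits, beside 1.53% of all genes tested. With p-values adjusted over all genes tested, 0 of 42 were called by edgeR's quasi-likelihood test, beside 0.0158% of all genes, which is 2 genes. DESeq2 called 5 of them, ASAH1, GALC, SPTLC3, SPTSSB and ACER2, all higher, beside 3.73% of the genes it tested that were higher, with ACER2 at the edge of the threshold (DESeq2 adjusted p = 0.0499). At an unadjusted p under 0.05 and any fold, 9 genes were higher and 2 lower, beside 15.7% and 8.6% of all genes. The groups did not overlap for 12 genes that were higher and 5 that were lower, beside 13.8% and 16.2% of all genes. An exact permutation test of a single gene cannot go below p = 0.1 with 3 libraries against 3. Over the 42 genes tested, 28 were fitted higher and 14 lower, with a median log2 fold change of 0.21, against 0.03 over all genes tested.

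**Figure D1:**
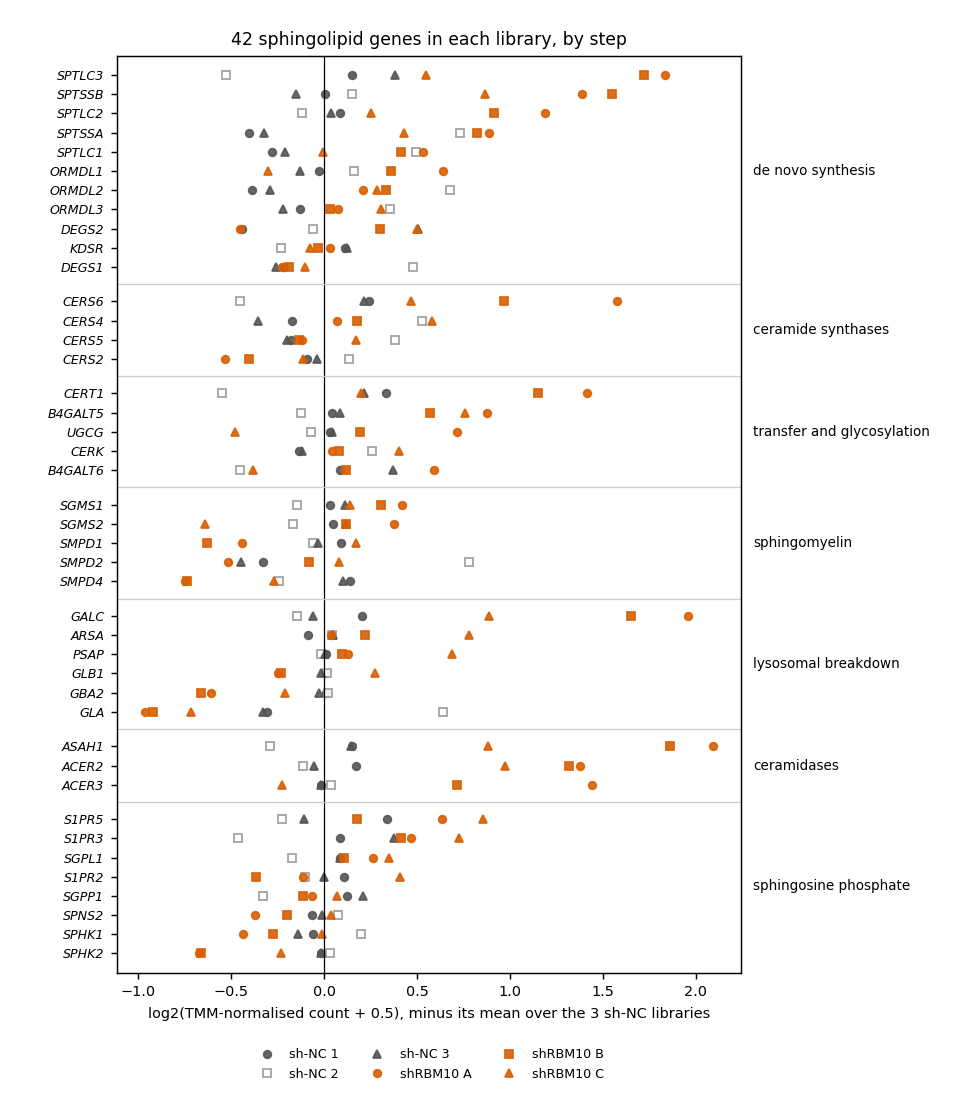
Level of each of the 42 genes tested in each library, as log2 of the TMM-normalised count (plus 0.5) minus its mean over the 3 sh-NC libraries, with genes grouped by step. Grey symbols are sh-NC replicates (replicate 2 open) and orange symbols are shRBM10 libraries A (circle), B (square) and C (triangle), and for SPTLC3, SPTSSB, CERS6, GALC, ASAH1 and ACER2 all orange symbols lie right of all grey ones.

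The fold changes ran with the GC content of the genes. Over all genes with a GC value the Spearman correlation of log2 fold change with GC content was -0.61 (n = 12575 genes), and over the 42 sphingolipid genes it was -0.42. These genes share the same 6 libraries and are not independent. The median log2 fold change was 0.77 in the tenth of genes with the lowest GC content (median 37.6% GC) and -0.357 in the tenth with the highest (median 64.8% GC). The 6 sphingolipid genes past the unadjusted limits had a GC content of 40.3% to 47.9%. After a smooth trend with GC content had been removed from each library, 25 sphingolipid genes were fitted higher and 17 lower, with a median of 0.06 against -0.02 over all genes. ASAH1, ACER2, SPTSSB (higher) and GLA (lower) were then past the unadjusted p and fold limits, which 2.39% of all genes passed higher and 2.2% lower. At any fold, 11 sphingolipid genes were then higher and 5 lower at an unadjusted p under 0.05, beside 8.48% and 9.71% of all genes. Values after this correction stand beside each step, because shRBM10 libraries A and B differed from the other 4 libraries in their trend with GC content. The part of this difference in the results was not tested. With trends in both GC content and length removed, ASAH1 (edgeR adjusted p = 0.0344) and ACER2 (edgeR adjusted p = 0.0462) were called, beside 0.737% of all genes called higher, and 3 genes passed the unadjusted limits, beside 2.39%. With the GC trend and sh-NC replicate 2 both removed, a fit added after seeing the data, ASAH1, ACER2 and SPTSSB were called, beside 1.41% of all genes higher, and the same count of 3 passed the unadjusted limits, beside 2.35%. Without shRBM10 library C, 10 sphingolipid genes passed the unadjusted limits, all higher except GLA, beside 13.5% of all genes higher and 3.3% lower.

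**Figure D2:**
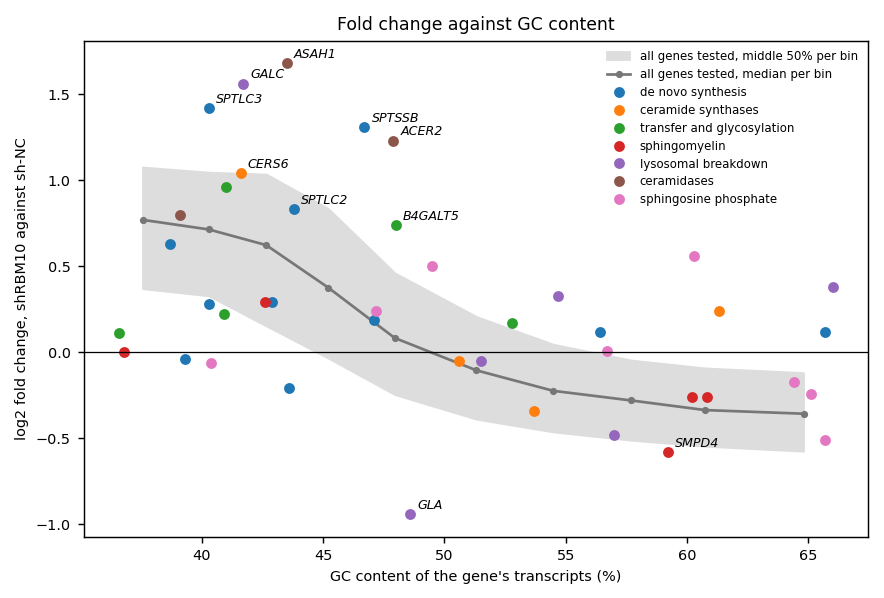
Log2 fold change of shRBM10 against sh-NC (vertical axis) against GC content in percent (horizontal axis) for the 42 genes tested, coloured by step, over the median (grey line) and the middle 50% (grey band) of all genes tested in 10 bins of GC content. Among the genes named in the plot, ASAH1, GALC, SPTLC3, SPTSSB, ACER2 and B4GALT5 lie above the band and GLA and SMPD4 below it, and other genes without a name lie outside it on both sides.

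De novo synthesis begins with serine palmitoyltransferase, an enzyme of SPTLC1 with SPTLC2 or SPTLC3 as its catalytic partner and SPTSSA or SPTSSB as a small activating subunit. Of the 11 genes of this step, 9 were fitted higher and 2 lower (median log2 fold change 0.28), and the subunits SPTLC2, SPTLC3 and SPTSSB were higher at an unadjusted p under 0.05. SPTLC2 (chr14:77505997-77616773, minus strand) had normalised counts of 1005, 875 and 972 in sh-NC against 2161, 1788 and 1130 in shRBM10. Libraries A and B were well above the controls and library C was just above them, for a log2 fold change of 0.83 (SE 0.27, edgeR adjusted p = 0.156). SPTLC3 (chr20:13008979-13169103, plus strand), whose enzyme also makes bases of other chain lengths, gave 66.2, 41.1 and 77.6 against 214, 197 and 87.4. The groups did not overlap, library C again lay closest to the controls, and the log2 fold change was 1.42 (SE 0.41, edgeR adjusted p = 0.153). SPTSSB (chr3:161344792-161372880, minus strand), the subunit that favours longer acyl-CoA substrates, gave 27.2, 30.1 and 24.4 against 71.9, 80.5 and 49.9. Every shRBM10 library lay above every sh-NC library, with a log2 fold change of 1.31 (SE 0.32, edgeR adjusted p = 0.14).

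The more abundant partners moved less. DEGS1, the desaturase that places the double bond of ceramide, had the highest level per length of the step (105 TPM in sh-NC) and normalised counts of 2116, 3423 and 2057 in sh-NC against 2106, 2158 and 2290 in shRBM10. Its groups overlapped, the highest value being sh-NC replicate 2, and the log2 fold change was -0.21 (SE 0.25). SPTLC1, the shared subunit, and SPTSSA had log2 fold changes of 0.29 (SE 0.28) and 0.63 (SE 0.33), with overlapping groups. Without sh-NC replicate 2, SPTSSA stood at 1.01 (edgeR adjusted p = 0.0979). The signs of both turned once the GC trend was removed, to -0.28 for SPTLC1 and -0.17 for SPTSSA, and with GC and length trends removed they stood at -0.11 and -0.10. The ORMDL proteins, which hold serine palmitoyltransferase in check when ceramide is plentiful, lay between 0.12 and 0.28 (ORMDL1, ORMDL2 and ORMDL3), and KDSR, which reduces the first product, at -0.04. DEGS2, which makes phytoceramide, was counted 7 to 16 times per library, and its log2 fold change of 0.12 (SE 0.44) was not detectable at this depth.

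The minor subunits of serine palmitoyltransferase made a larger mean share of their pairs. SPTSSB made 3.41% ± 1.07 of the summed SPTSSA and SPTSSB level per length (TPM) in sh-NC and 4.82% ± 0.509 in shRBM10, without overlap, and SPTLC3 made 7.81% ± 1.86 and 11.2% ± 1.76 of SPTLC2 and SPTLC3, with overlap (SD, n = 3). These shares were looked at after the fold changes were known and are given without a test. In other pairs of the pathway the less abundant gene had a lower mean share in shRBM10. SGMS2 went from 11.9% to 9.8% of SGMS1 and SGMS2, and SPHK2 from 16.0% to 13.5% of SPHK1 and SPHK2, both without overlap. B4GALT6 went from 2.16% to 1.43% of B4GALT5 and B4GALT6, with overlap. Summed over the step, the level was 304, 274 and 308 TPM in sh-NC against 443, 389 and 348 TPM in shRBM10. The 3 shRBM10 sums were all higher, at 1.33 times the sh-NC mean. After removal of the GC trend, 6 of the 11 genes were fitted higher and 5 lower (median 0.02). SPTSSB then stood at 1.08, SPTLC3 at 0.69 and SPTLC2 at 0.33, and KDSR at -0.67 (edgeR adjusted p = 0.239). With GC and length trends removed, SPTSSB stood at 1.09, SPTLC3 at 0.53 and SPTLC2 at 0.00 (SE 0.24).

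Ceramide synthases attach the fatty acid to the base, each with its own preferred chain lengths. CERS2, which makes very long-chain ceramides, was the most abundant per length (164 TPM in sh-NC). It had normalised counts of 4206, 4917 and 4367 in sh-NC against 3094, 3387 and 4141 in shRBM10. All shRBM10 libraries were below all sh-NC libraries, yet the log2 fold change was only -0.34 (SE 0.22, edgeR adjusted p = 0.333). CERS6 (chr2:168455862-168775137, plus strand), which prefers palmitoyl-CoA, was at 129, 79.4 and 126 in sh-NC against 325, 214 and 151 in shRBM10. It was higher in every shRBM10 library, most in library A and least in library C, with a log2 fold change of 1.04 (SE 0.36, edgeR adjusted p = 0.166). CERS4 and CERS5 lay at 0.24 (SE 0.29) and -0.05 (SE 0.25). CERS6 thereby went from 0.626% ± 0.22 to 1.49% ± 0.738 of the summed level per length of the 4 synthases, and CERS2 from 70.7% ± 3.93 to 63.1% ± 0.958 (SD, n = 3), both without overlap and without a test. The summed level of the step was 230 ± 42.9 TPM in sh-NC and 233 ± 27.8 TPM in shRBM10, so the sums overlapped while the shares of CERS2 and CERS6 did not. The gap for CERS6 was narrow, at 0.8% in library C against 0.764% in sh-NC replicate 1. Mean levels of CERS4 and CERS5 were 30.0 and 35.0 TPM in sh-NC against 42.6 and 40.0 TPM in shRBM10. With the GC trend removed, CERS6 stood at 0.39 (edgeR adjusted p = 0.317), CERS4 at 0.55 and CERS2 at -0.19. With GC and length trends removed, CERS6 stood at 0.17, CERS4 at 0.71 (edgeR adjusted p = 0.0425) and CERS2 at -0.11.

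Transfer and glycosylation carry ceramide on to other lipids. All 5 genes tested of this step were fitted higher (median 0.22). The most abundant, B4GALT5 (chr20:49632945-49713878, minus strand), the main lactosylceramide synthase, gave 1516, 1353 and 1563 normalised counts in sh-NC against 2712, 2192 and 2494 in shRBM10. The groups did not overlap and lay apart by more than their spread, with a log2 fold change of 0.74 (SE 0.21, edgeR adjusted p = 0.153) that stayed at 0.62 after removal of the GC trend. CERT1 (chr5:75356345-75512138, minus strand), the carrier that takes ceramide from the endoplasmic reticulum to the Golgi, gave 182, 98.6 and 168 against 386, 322 and 166. Libraries A and B were high, while library C lay inside the range of the controls, so its log2 fold change of 0.96 (SE 0.38, edgeR adjusted p = 0.182) came from 2 of 3 libraries. Removal of the GC trend brought CERT1 to 0.27, and removal of GC and length trends to 0.02. UGCG, which adds glucose to ceramide, CERK, which phosphorylates it, and B4GALT6, the second lactosylceramide synthase, lay at 0.22, 0.17 and 0.11, each within its SE of 0.23 to 0.38. The signs of UGCG and B4GALT6 turned with the GC trend removed, to -0.50 and -0.61. UGT8, the galactosyltransferase that makes the galactosylceramide on which GALC acts, had 1 count after rounding in all 6 libraries together and was not tested. Before rounding, its estimated counts were 1.3 in sh-NC replicate 1, 0.37 in shRBM10 library A and 0 in the others. In the 5 libraries with a rounded count of 0, the upper limit of 3 counts (95% confidence, counting error only) corresponds to 0.103 to 0.139 TPM of UGT8. The summed level of the step was 69.3 ± 20 TPM in sh-NC and 108 ± 15.6 TPM in shRBM10 (SD, n = 3), 1.56 times as high and without overlap. By library it was 79.7, 46.3 and 82.0 TPM in sh-NC against 126, 96.5 and 102 TPM in shRBM10. The low sum of sh-NC replicate 2 raised the ratio of 1.56.

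**Figure D3:**
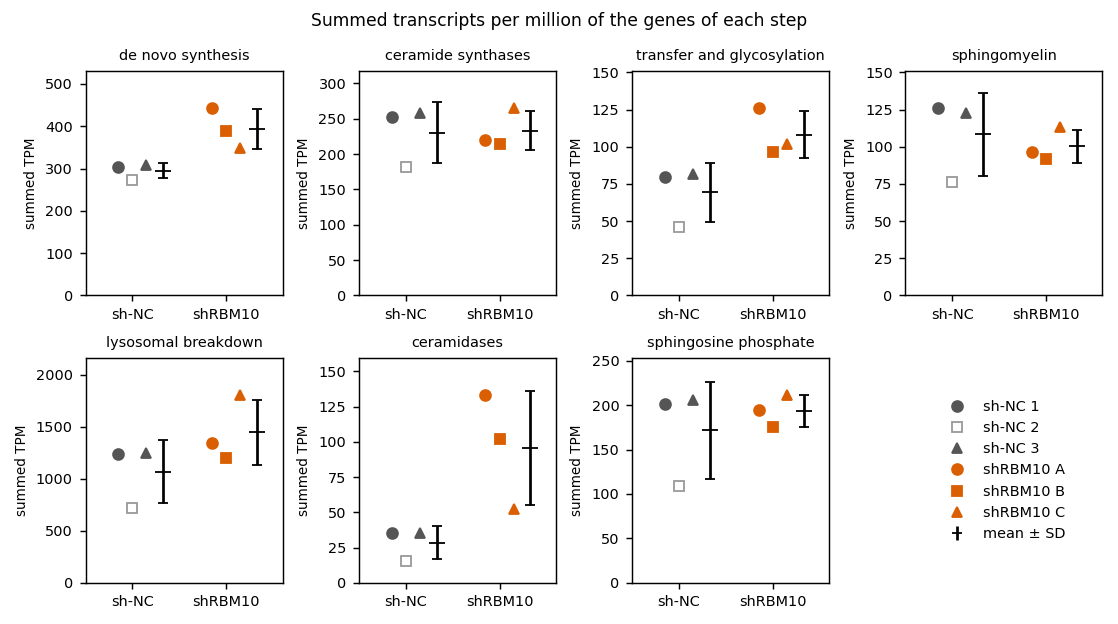
Summed TPM of the genes of each step (vertical axes, each from 0) in the 3 sh-NC (grey) and 3 shRBM10 (orange) libraries, with mean and SD in black. The sums did not overlap for de novo synthesis (1.33 times), transfer and glycosylation (1.56 times) and ceramidases (3.35 times), and overlapped for the other steps. sh-NC replicate 2 had the lowest sum in every step, and trends with GC content or length were not removed from the sums.

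Of the 5 genes of sphingomyelin turnover, 3 were fitted lower (median log2 fold change -0.26). The synthases SGMS1 and SGMS2, which move phosphocholine onto ceramide, were fitted at 0.29 (SE 0.22) and 0.00 (SE 0.33), and the sphingomyelinases SMPD1 (acid, lysosomal), SMPD2 (neutral) and SMPD4 (neutral) at -0.26 (SE 0.28), -0.26 (SE 0.36) and -0.58 (SE 0.24). SMPD4 (chr2:130151392-130182750, minus strand) also had the highest level per length of the step. Its normalised counts were 2504, 1925 and 2445 in sh-NC against 1355, 1361 and 1886 in shRBM10. The groups did not overlap, although library C lay just under sh-NC replicate 2, and edgeR's adjusted p was 0.185. The GC-corrected log2 fold change of SMPD4 was -0.32, and that of SGMS2 was -0.75 (edgeR adjusted p = 0.126). The signs of the other genes of the step turned with this correction, to 0.01 for SMPD1, 0.05 for SMPD2 and -0.24 for SGMS1. Without sh-NC replicate 2, SMPD2 stood at 0.16. The sums over the step were 126, 76.1 and 123 TPM in sh-NC against 96.7, 91.6 and 113 TPM in shRBM10, with overlap.

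In lysosomal breakdown, GALC and GLA stood at opposite ends. GALC (chr14:87837820-87993665, minus strand), galactosylceramidase, is the enzyme lost in Krabbe disease. It was scarce, with 54, 28 and 45 raw counts in sh-NC against 162, 140 and 82 in shRBM10, or normalised counts of 49.0, 38.3 and 40.6 against 166, 134 and 78.8. Every shRBM10 library was above every sh-NC library, by a factor of 2.95 in the fit (log2 fold change 1.56, SE 0.35, edgeR adjusted p = 0.13). DESeq2 gave 1.54 with an adjusted p of 0.00957, and over all alternatives the adjusted p lay between 0.00957 and 0.502. The log2 fold change was 0.91 (SE 0.18, edgeR adjusted p = 0.115) with the GC trend removed. GLA (chrX:101397803-101408012, minus strand), alpha-galactosidase A, which removes the terminal galactose of globotriaosylceramide and is deficient in Fabry disease, gave 521, 1006 and 515 in sh-NC against 332, 341 and 393 in shRBM10. All shRBM10 libraries were lower, and sh-NC replicate 2 stood far above the other 2 controls. The log2 fold change was -0.94 (SE 0.31, edgeR adjusted p = 0.158). It was -1.0 with the GC trend removed and -0.63 without sh-NC replicate 2. GLA and GALC, which both take galactose from a lipid, were thus fitted in opposite directions.

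PSAP, the precursor of the saposins that present lipids to these hydrolases, was by far the most abundant of the 43 genes, at 935 TPM in sh-NC. Its normalised counts were 29069, 28525 and 28999 in sh-NC against 31605, 30813 and 46546 in shRBM10. All 3 shRBM10 libraries were higher, but library C made most of the difference, and the log2 fold change was 0.33 (SE 0.29, edgeR adjusted p = 0.467). GBA2, a glucosylceramidase outside the lysosome, was lower without overlap at -0.48 (SE 0.24). ARSA, which removes sulfate from sulfatide, was at 0.38 (SE 0.29) and GLB1, the lysosomal beta-galactosidase, at -0.05 (SE 0.23). With the GC trend removed, ARSA stood at 0.71 and PSAP at 0.51 (edgeR adjusted p = 0.127 and 0.259). The step as a whole was fitted higher for 3 genes and lower for 3, and its summed level, almost all PSAP, was 1070 ± 308 TPM against 1450 ± 312 TPM, with overlap. The sh-NC sums were 1240, 715 and 1250 TPM, so replicate 2 lowered the control mean.

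Ceramidases had the largest median and summed fold change of the 7 steps. All 3 genes were fitted higher, with a median log2 fold change of 1.23. ASAH1 (chr8:18055992-18084998, minus strand), the acid ceramidase of the lysosome that is deficient in Farber disease, had normalised counts of 737, 542 and 735 in sh-NC against 2834, 2416 and 1227 in shRBM10. The lowest shRBM10 library, C, was still above the highest control, and the fit gave a factor of 3.21 (log2 fold change 1.68, SE 0.32, edgeR adjusted p = 0.108). Leaving out 1 library at a time kept the log2 fold change of ASAH1 between 1.44 and 1.91, and removal of the GC trend gave 1.14 (SE 0.18, edgeR adjusted p = 0.086). ACER2 (chr9:19409059-19452020, plus strand), the alkaline ceramidase of the Golgi, gave 31.7, 26.0 and 27.1 against 73.9, 70.9 and 55.7. The spread within each group was small beside the gap, and the log2 fold change was 1.23 (SE 0.30, edgeR adjusted p = 0.139), or 1.10 with the GC trend removed. ACER3, the alkaline ceramidase with a preference for unsaturated long chains, was at 523 and 316 in libraries A and B but at 164 in library C, under the 190, 197 and 190 of sh-NC. Its log2 fold change of 0.80 (SE 0.39, edgeR adjusted p = 0.23) turned to -0.04 with the GC trend removed. The ceramidases summed to 35.1, 15.2 and 35.2 TPM in sh-NC against 133, 102 and 52.7 TPM in shRBM10, 3.35 times as high and without overlap. ASAH1 made 85.7% ± 2.2 of this sum in sh-NC and 91.0% ± 0.912 in shRBM10 (SD, n = 3). The low ceramidase sum of sh-NC replicate 2 raised the ratio of 3.35.

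Sphingosine phosphate genes were near balance after TMM normalisation alone, with 4 fitted higher and 4 lower and a median of -0.02. None reached an unadjusted p under 0.05 in this fit. With the GC trend removed, 6 were fitted higher and 2 lower (median 0.14), and 1 was higher at an unadjusted p under 0.05. With GC and length trends removed, 5 were fitted higher and 3 lower (median 0.16). The most abundant was SGPL1, the lyase that cleaves S1P irreversibly, with normalised counts of 3662, 3054 and 3664 in sh-NC against 4140, 3711 and 4393 in shRBM10. The shRBM10 values were all higher, by a log2 fold change of 0.24 (SE 0.21, edgeR adjusted p = 0.479). SGPL1 stood at 0.07 with the GC trend removed and at -0.12 with GC and length trends removed. The kinases that make S1P, SPHK1 and SPHK2, lay at -0.24 (SE 0.24) and -0.51 (SE 0.27). For SPHK2 the counts of 190, 196 and 190 in sh-NC were all above the 120, 121 and 163 of shRBM10 (edgeR adjusted p = 0.264), and the log2 fold change was -0.17 with the GC trend removed. SGPP1, an S1P phosphatase, was at -0.06 and SPNS2, the S1P exporter, at -0.17. Removal of the GC trend turned the signs of SPHK1 and SPNS2, to 0.11 and 0.17. The receptors S1PR2, S1PR3 and S1PR5 lay at 0.01 (SE 0.31), 0.50 (SE 0.28) and 0.56 (SE 0.33), and the groups did not overlap for S1PR3 (348, 238 and 427 against 455, 437 and 543). S1PR5 was at 0.83 with the GC trend removed (edgeR adjusted p = 0.213). The summed level of the step was 172 ± 55.0 TPM in sh-NC and 193 ± 17.6 TPM in shRBM10, with overlap. By library it was 201, 109 and 206 TPM in sh-NC against 194, 175 and 211 TPM in shRBM10. The lower sh-NC mean thus came from replicate 2.

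**Figure D4:**
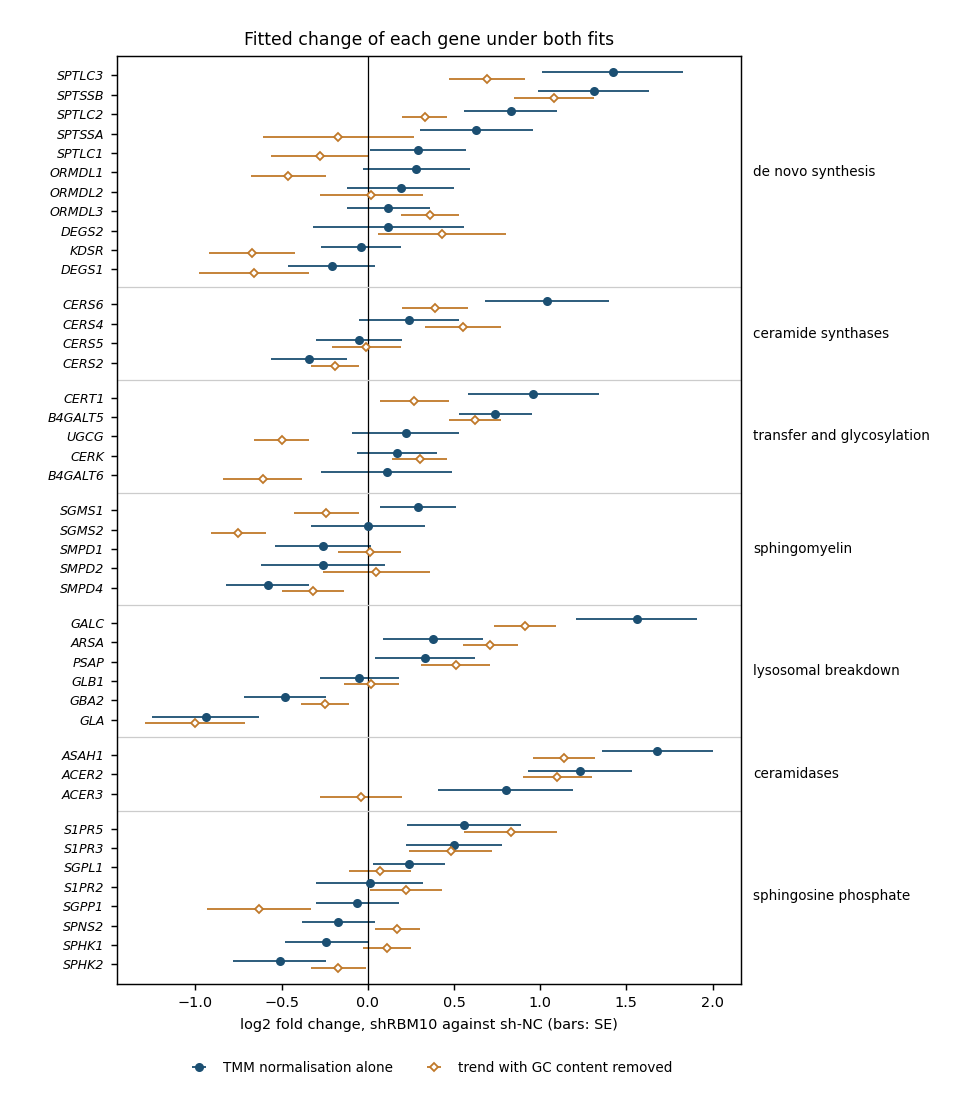
Fitted log2 fold change of shRBM10 against sh-NC with its SE (horizontal axis) for each of the 42 genes tested, by step, after TMM normalisation alone (filled circles) and with the trend with GC content also removed (open diamonds). ASAH1, ACER2, SPTSSB and GALC stay near or above 0.91 in both, GLA stays near -1, and CERS6, CERT1, ACER3 and UGCG move towards or past 0.

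Other genes of sphingolipid metabolism were described in the same way. Of 59 genes named for this purpose, 55 were in the table and 47 could be tested. 29 were fitted higher and 18 lower (median log2 fold change 0.24), and 8 passed the unadjusted p and fold limits, all higher and none lower, beside 10.1% and 1.53% of all genes. None was called by edgeR after adjustment. SCARB2, a lysosomal membrane protein, had normalised counts of 959, 741 and 987 in sh-NC against 2194, 1822 and 1363 in shRBM10 (log2 fold change 1.0, SE 0.25, edgeR adjusted p = 0.144). As with ASAH1 and GALC, it was higher in every shRBM10 library and lowest, among these, in library C. SMPDL3A, a relative of acid sphingomyelinase, was at 1.04, and ST3GAL5, which makes the ganglioside GM3, at 1.38 on normalised counts of 4.11 to 9.98 in sh-NC and 14.4 to 21.1 in shRBM10. 4 more belong to the elongation of fatty acids, which feeds the acyl chains of ceramide, namely ELOVL6 (1.10), ELOVL7 (1.15), HACD2 (1.07) and HSD17B12 (1.03). With the GC trend removed, SCARB2 stood at 0.45, SMPDL3A at 0.42 and ST3GAL5 at 0.95, and the 4 elongation genes at 0.31 to 0.50.

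The transcript table offered a second readout, because RBM10 acts on splicing and the choice of genes had not used transcripts. It lists 182 RefSeq transcripts for the 43 genes, and for 29 genes at least 2 transcripts could be tested for a shift in their proportions. None of the 29 was called by edgeR's diffSpliceDGE after adjustment (beside 0.0958% of 8348 genes) and 0 had an unadjusted Simes p under 0.05 (beside 2.78%). limma's diffSplice on voom weights called 0 after adjustment and gave 1 at an unadjusted p under 0.05. The smallest Simes p was that of ASAH1 (0.159). Its transcript XM_005273504 held 3.4%, 1.9% and 3.9% of the gene's counts in sh-NC against 15.9%, 7.9% and 3.7% in shRBM10, so only libraries A and B were above the controls. The main transcript of ASAH1, NM_177924, held 81.4% to 98.1% in every library. In SPTLC2, the next in order, NM_004863 held 68.5%, 45.4% and 69.4% in sh-NC against 83.4%, 77.3% and 67.7% in shRBM10, with overlap. In SGMS1, the third in order, NM_147156 held 47.5%, 36.5% and 51.5% in sh-NC against 72.4%, 63.5% and 55.3% in shRBM10. The SGMS1 shares did not overlap, but the fitted shift of this transcript (0.34 on the log2 scale) did not pass the test.

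GALC was listed with a single transcript, NM_000153, which held all of its counts in each of the 6 libraries. The matching GENCODE transcript has 17 exons and includes exon 6, the exon whose skipping the study followed by other assays. Exon 6 lies at chr14:87982205-87982243 on the minus strand of GRCh38, is coding, and is 39 bases long, which makes 13 whole codons, with 582 coding bases before it and so no shift of the reading frame when it is left out. It is AT-rich (28.2% GC). It is shown here because these data cannot tell transcripts with and without it apart, and its sequence follows with 15 bases of exon 5 before it and 15 bases of exon 7 after it in lower case and exon 6 in capitals.
GALC exon 6: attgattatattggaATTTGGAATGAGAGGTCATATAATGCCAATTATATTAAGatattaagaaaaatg
None of the 16 GENCODE transcripts of GALC joins exon 5 directly to exon 7, and 10 contain exon 6 as given. The 2.95-fold higher count of GALC is therefore a statement about the gene as a whole, and inclusion of exon 6 was not measured here.

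Promoter windows of 250 bases before the start site were available for 33 of the 43 genes (RefSeq, GRCh38.p14, 1 window per gene). Each was searched on both strands for CCAAT, the CCAAT box, and for CACGTG, the core of the motif common in promoters of lysosomal genes. No match of one overlapped a match of the other. CCAAT was present in 7 of the 33 windows (21.2%, against 33.0% of 27305 windows of all genes), in SPTLC2 and CERS6, which were higher at an unadjusted p under 0.05, in GLA, which was lower, and in SPTSSA, ORMDL1, ORMDL2 and S1PR5. CACGTG was present in 1 window, that of UGT8 (beside 6.49% of all windows). The 10 genes without a window were ARSA, ASAH1, B4GALT6, CERK, CERS2, CERS4, PSAP, SGPP1, SPNS2 and SPTLC3. The lysosomal genes ASAH1, PSAP and ARSA were therefore not searched for either motif. The stretches of 3 windows that precede any annotated exon are shown, to set a gene with higher counts beside CCAAT boxes (SPTLC2), one with lower counts beside them (GLA) and one with higher counts and neither motif (ACER2). Of the 250 bases, 114 are shown for SPTLC2 and 163 for GLA. Matches were counted over whole windows, which can overlap annotated exons. SPTLC2 and GLA each had 3 CCAAT matches in the window, of which 2 are shown. CCAAT is in capitals, and appears as ATTGG where it lies on the other strand.
SPTLC2, chr14:77616774-77616887, minus strand: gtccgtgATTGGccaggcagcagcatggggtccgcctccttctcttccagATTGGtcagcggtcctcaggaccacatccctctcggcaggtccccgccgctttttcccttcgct
GLA, chrX:101408013-101408175, minus strand: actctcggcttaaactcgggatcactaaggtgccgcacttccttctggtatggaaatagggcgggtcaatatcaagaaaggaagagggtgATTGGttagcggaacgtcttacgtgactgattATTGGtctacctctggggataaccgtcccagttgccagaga
ACER2, chr9:19408759-19409008, plus strand: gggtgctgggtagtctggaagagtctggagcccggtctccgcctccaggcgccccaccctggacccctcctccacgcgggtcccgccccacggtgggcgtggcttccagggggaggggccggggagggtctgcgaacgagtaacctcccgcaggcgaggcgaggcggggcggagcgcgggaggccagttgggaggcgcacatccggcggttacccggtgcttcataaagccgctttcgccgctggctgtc
Genes with CCAAT in this window thus included both SPTLC2 and GLA, whose fitted changes were opposite in sign after TMM normalisation alone. With GC and length trends removed, SPTLC2 stood at 0.00 (SE 0.24) and GLA at -0.78 (SE 0.15). A match describes letters in this window only.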

How the data were processed

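RNA-seq of 3 sh-NC and 3 shRBM10 PC9 samples was analysed from 2 tables, per gene and per transcript. The authors deposited estimated counts, of which 87.5% of the gene values and 41.1% of the transcript values are whole numbers. The sequencing reads were processed upstream with the build hg38 per the labels' processing notes, and the aligner and counter are not given in the sources used here. The deposited estimated counts were rounded. In each table, 18 columns of other per-library measures and 8 columns of group means were not used. Genes passing edgeR's filterByExpr (12620) were normalised by TMM. The quasi-likelihood test (glmQLFit, glmQLFTest) had group as its only term and p-values were adjusted by Benjamini-Hochberg over all genes tested (edgeR 4.0.16, limma 3.58.1, R 4.3.3). Normalised counts are scaled to the mean library. TPM was computed from the counts and the count-weighted length of GENCODE release 29 transcripts. Where too few of a gene's counts lay on matched transcripts, the length and GC content of its longest transcript, protein-coding first, were used. The GC trend was a loess curve (span 0.3) of each library's log2 deviations on transcript GC content, found for 99.6% of genes tested. Transcript proportions were tested with diffSpliceDGE.

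The genes and lists were chosen with earlier results of these data known. Values in every library were given for RBM10, GALC, each gene with an unadjusted p under 0.05 and the most abundant gene of each step, and for ACER3, SPHK2 and S1PR3, added after their values were seen. Of 59 other genes of the pathway, those past the unadjusted limits were named, except 1 that is not reported here. On simulated counts of 12620 genes with the fitted dispersions, the shRBM10 against sh-NC test recovered 85.6% of 4-fold and 7.1% of 2-fold changes at an adjusted p under 0.05. Alternatives were DESeq2 1.42.0, limma-voom, 3 other normalisations, 2 other count filters, removal of the GC or the GC and length trends, other fold limits and leaving out each library. Removing the GC trend together with sh-NC replicate 2 was added after seeing the data.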

Additional observations from a re-analysis of the deposited data

How the results depend on the processing

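Of the single-gene values recomputed under alternatives (671 in all), 580 kept their direction and side of the adjusted threshold, 19 became significant and 72 changed sign (39 of these with the GC trend removed), and 22 of 42 genes kept 1 sign under all 16 alternatives. Called genes (0 by edgeR) numbered 5 with DESeq2, 2 with GC and length trends removed (ASAH1, ACER2) and 3 with the GC trend and sh-NC replicate 2 removed together (ASAH1, ACER2, SPTSSB), an alternative chosen after seeing the data, and 0 in every fit that left out 1 library. Further genes fell under an edgeR adjusted p of 0.05 in some alternative without passing the fold limit. Of these, CERS4 (lowest adjusted p 0.0104), ARSA (0.0252), ORMDL3 (0.027), B4GALT5 (0.0313) and CERK (0.0437) were higher. SMPD4 (0.0278), SGMS2 (0.0317) and GLA (0.0339) were lower. Genes past the unadjusted limits (6) numbered 3 with GC and length trends removed, 3 with the GC trend and sh-NC replicate 2 removed, 11 with no fold limit, 10 at a log2 fold limit of 0.58, and 5 to 10 when 1 library was left out (10 without shRBM10 library C). Over the 42 genes the median change on the log2 scale (0.21) was 0.26 with upper-quartile normalisation, 0.34 with library size only (0.158 over all genes), 0.25 with at least 10 counts in every library, 0.06 with the GC trend removed, 0.10 with GC and length trends removed, 0.17 with the GC trend and sh-NC replicate 2 removed, and 0.11 to 0.23 when 1 library was left out. RBM10 (-1.24) was significant with DESeq2 (-1.26, adjusted p = 0.00154), with GC and length trends removed (-1.0, edgeR adjusted p = 0.0261), with the GC trend and sh-NC replicate 2 removed (-1.09, edgeR adjusted p = 0.00568) and without sh-NC replicate 2, and ranged from -1.43 to -1.17 when 1 library was left out. The log2 fold changes that took the opposite sign were as follows. Removal of the GC trend gave SPTLC1 -0.28, SPTSSA -0.17, ORMDL1 -0.46, UGCG -0.50, B4GALT6 -0.61, SGMS1 -0.24, SGMS2 -0.75, SMPD1 0.01, SMPD2 0.05, GLB1 0.02, ACER3 -0.04, SPHK1 0.11 and SPNS2 0.17. Removal of GC and length trends gave SPTLC1 -0.11, SPTSSA -0.10, ORMDL1 -0.28, CERS5 0.11, UGCG -0.59, B4GALT6 -0.66, SGMS1 -0.30, SGMS2 -0.97, SMPD1 0.08, SMPD2 0.25, GLB1 0.09, ACER3 -0.33, SPHK1 0.23, SGPL1 -0.12 and SPNS2 0.14. Without both the GC trend and sh-NC replicate 2 they were ORMDL1 -0.23, CERS5 0.19, UGCG -0.42, B4GALT6 -0.67, SGMS1 -0.25, SGMS2 -0.68, SMPD2 0.49, GLB1 0.01, SPHK1 0.17, SGPL1 -0.03 and SPNS2 0.16. By library size only they were KDSR 0.06, CERS5 0.12, GLB1 0.07 and SGPP1 0.03, and with upper-quartile normalisation KDSR 0.00 and CERS5 0.02. SGMS2 and S1PR2, both within 0.01 of 0 as reported, stood at -0.02 and -0.01 with DESeq2 and with RLE normalisation, and at -0.06 and -0.03 with limma-voom. Leaving out 1 library at a time turned the sign of B4GALT6 (-0.17 to 0.31), CERS5 (-0.19 to 0.09), DEGS2 (-0.14 to 0.45), GLB1 (-0.29 to 0.04), KDSR (-0.23 to 0.02), ORMDL3 (-0.01 to 0.24), S1PR2 (-0.30 to 0.17), SGMS2 (-0.22 to 0.19), SGPP1 (-0.28 to 0.05), SMPD2 (-0.48 to 0.16) and UGCG (-0.10 to 0.42). The cause of these differences was not tested. No transcript shift was called in any of 8 alternatives. No paired analysis was possible because only 1 shRBM10 column could be tied to a replicate number, so the groups share fewer than 2 numbers.

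GALC, ACER2, SPTLC3, SPTSSB, DEGS2, B4GALT6, S1PR5 and UGT8 had fewer than 100 counts in every sh-NC library, and intervals from counting cover counting error only.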
